A study of Mus musculus with 4 samples.

Results

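The 9 genes described here encode the signaling chains of the T cell receptor complex and the proteins that act closest to it, Cd3d, Cd3e, Cd3g and Cd247, the kinases Lck, Fyn and Zap70, and the adapters Lat and Lcp2. They were taken by symbol from the 32285 genes of the count tables, and all 9 were found in both tables. Their levels were followed in tumor-infiltrating T cells of 3 kinds, in both genotypes, and in CD8+ cells by the size of the clonotype a cell belongs to.

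The T cell receptor binds antigen through its alpha and beta chains, which have no signaling part of their own and are held at the surface by the CD3 dimers and the zeta chain. When the receptor is engaged, Lck phosphorylates the immunoreceptor tyrosine-based activation motifs of the CD3 and zeta chains, Zap70 docks on them, and Zap70 in turn phosphorylates the adapters Lat and Lcp2, on which the downstream enzymes assemble. The messenger RNA of these genes is a measure of how much transcript a T cell carries, not of receptor at the surface or of phosphorylation.

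The mice carried a Vsir gene flanked by loxP sites on the C57BL/6 background, with the CD4-cre transgene in the VISTA-KO group and without it in their WT littermates, so that both groups had the floxed allele. The Cd4 promoter is active before T cells commit to a lineage, and the design thus targets Vsir, which encodes the inhibitory receptor VISTA, in both CD4+ and CD8+ T cells. All mice, 6 to 8 weeks of age, bore B16bl6 melanoma, a transplantable mouse tumor line, and were treated with a vaccine of CpG, R848 and the DeltaV peptide of TRP2 on day 3 and with anti-CTLA-4 antibody on days 4 and 8. Tumors taken on day 18 after treatment were pooled within a genotype (5 to 6 mice by the methods, 6 to 8 tumors by a figure legend), CD4+ and CD8+ T cells were enriched and sorted, and each pool gave 1 gene expression and 1 receptor library. With 1 library per genotype there was no test: the 95% intervals below cover counting error only, and differences between mice, pools and library preparations cannot be told apart from those between genotypes.

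Vsir, the targeted gene, stood at 112 CPM (UMIs of a gene scaled to a sum of 1000000 over all genes) in WT CD8+ cells and 111 CPM in VISTA-KO CD8+ cells, at 109 and 117 CPM in conventional CD4+ cells, and at 112 and 117 CPM in regulatory cells. It was not lower in the library labelled VISTA-KO. The counted fragments need not lie in the deleted part of the gene, so its level here is no check on the deletion or on the labels.

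After the filters (at least 600 genes and under 30% mitochondrial UMIs) the libraries kept 10224 of 10337 WT barcodes and 9946 of 10085 VISTA-KO barcodes, with medians of 4723 and 4670.5 UMIs per cell. CD8+ cells had a UMI of Cd8a or Cd8b1 and none of Cd4 (5549 in WT, 4350 in VISTA-KO), conventional CD4+ cells a UMI of Cd4 and none of Foxp3 (1768 and 3048), and regulatory cells a UMI of both Cd4 and Foxp3 (1528 and 1270). Another 1379 and 1278 cells fell outside the 3 gates. Cd8a and Cd8b1 together stood at 2557 and 2433 CPM in CD8+ cells, Cd4 at 331 and 484 CPM in conventional CD4+ cells, and Foxp3 at 485 and 610 CPM in regulatory cells. These genes set the gates, so their presence there is no separate evidence of cell type. The CD4 gates also held cells with a Cd8a or Cd8b1 UMI: 578 of the WT and 638 of the VISTA-KO conventional cells, and 794 and 375 of the regulatory cells. In the conventional CD4 gate, 8.94% of WT and 3.67% of VISTA-KO cells carried markers of other cell types, and the summed level of 5 markers of plasmacytoid dendritic cells was 1236 and 642 CPM there, against 362 and 353 CPM in CD8+ cells. Melanoma markers summed to 10.5 and 199.6 CPM in CD8+ cells, 209 and 15.9 CPM in conventional CD4+ cells and 5.63 and 194 CPM in regulatory cells, so that they were higher in VISTA-KO for CD8+ and regulatory cells and in WT for conventional cells. Over gates and libraries, macrophage markers summed to between 58.4 and 152 CPM, B cell markers to between 9.48 and 27.9 CPM and NK markers to between 6.34 and 44.3 CPM. Those of gamma-delta T cells lay between 8.47 and 31.9 CPM, and neutrophil markers were at 0 except for 0.0352 CPM in VISTA-KO CD8+ cells. T cell markers summed to between 1480 and 2510 CPM. The part of these cells in the differences between gates and genotypes was not tested, except where ratios without them are given. The libraries shared 145 cell barcodes, of which 72 had a clonotype in both libraries after the filters and 0 the same one.

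Cd3g, Cd3d and Cd3e lie side by side on mouse chromosome 9. In GRCm38.p6, Cd3g (ENSMUSG00000002033) spans chr9:44969572-44980431 on the minus strand, Cd3d (ENSMUSG00000032094) chr9:44981769-44987052 on the plus strand, and Cd3e (ENSMUSG00000032093) chr9:44998735-45009663 on the minus strand. The transcript starts in the RefSeq promoter table, used for the windows shown next, lie inside these spans for Cd3d and Cd3e. By that table the starts of Cd3g and Cd3d are 1355 bases apart and point away from each other, and the start of Cd3e is 27825 bases from that of Cd3d. The 250 bases before each of these transcript starts are shown because these neighbors did not keep the same order of levels in the cells below. They come from RefSeq with the strand of the gene, 5′ to 3′. Capitals mark matches, on either strand, to the letters TGTGGT of RUNX factors, GGAAGT of ETS factors, AGATAA of GATA factors, TATAAA of the TATA box and CAGCTG of the E-box.
Cd3g, chr9:44980432-44980681: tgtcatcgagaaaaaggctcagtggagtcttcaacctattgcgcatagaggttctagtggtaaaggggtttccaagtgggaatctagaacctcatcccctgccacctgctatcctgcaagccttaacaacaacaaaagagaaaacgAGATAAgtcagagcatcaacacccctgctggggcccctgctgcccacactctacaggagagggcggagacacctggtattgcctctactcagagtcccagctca
Cd3d, chr9:44981536-44981785: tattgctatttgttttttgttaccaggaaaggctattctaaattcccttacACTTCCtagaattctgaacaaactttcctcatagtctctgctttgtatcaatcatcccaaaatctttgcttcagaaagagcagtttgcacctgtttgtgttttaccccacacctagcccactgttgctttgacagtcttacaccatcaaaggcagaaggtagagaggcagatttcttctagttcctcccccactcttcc
Cd3e, chr9:45009612-45009861: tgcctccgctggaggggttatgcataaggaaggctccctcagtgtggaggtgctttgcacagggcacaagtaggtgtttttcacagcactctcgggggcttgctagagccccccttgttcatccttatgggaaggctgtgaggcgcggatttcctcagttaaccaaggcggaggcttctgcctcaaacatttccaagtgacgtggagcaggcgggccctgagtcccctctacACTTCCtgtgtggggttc
Cd3g held 1 match to the GATA letters, and Cd3d and Cd3e held 1 each to the ETS letters, on the reverse strand. Of 32851 promoters of the same length, 9.99% held the GATA letters, 19.7% the ETS letters, 14.0% the RUNX letters, 12.4% the TATA letters and 13.0% the E-box letters. None of the 3 windows held TATAAA, and a match is a description of the letters only.

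The other genes are spread over the genome. Cd247 (ENSMUSG00000005763), the zeta chain, lies at chr1:165779952-165871153 and Zap70 (ENSMUSG00000026117) at chr1:36761798-36782821. Lck (ENSMUSG00000000409) lies at chr4:129548344-129573641 and Fyn (ENSMUSG00000019843) at chr10:39369743-39565381. Lat (ENSMUSG00000030742) lies at chr7:126363827-126369705 and Lcp2 (ENSMUSG00000002699), which encodes SLP-76, at chr11:34046928-34092281.

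Cd3d, Cd3e and Cd3g were highest in CD8+ cells of both libraries, and Cd247 in conventional CD4+ cells. Levels of Cd3d, which pairs with the epsilon chain, were 1203 CPM (95% interval, 1192 to 1214) in WT and 1171 CPM in VISTA-KO CD8+ cells, 1092 and 1085 CPM in regulatory cells, and 962 and 1020.2 CPM in conventional CD4+ cells. Cd3e, shared by both CD3 dimers, stood at 1583 and 1550.1 CPM in CD8+, 1392 and 1369 CPM in regulatory and 1321 and 1325 CPM in conventional CD4+ cells. For both genes the order CD8+, regulatory, conventional was the same in both libraries. Levels of Cd3g, the other partner of the epsilon chain, were 1581 and 1555 CPM in CD8+ cells, 1401 and 1358 CPM in conventional CD4+ cells and 1385 and 1282 CPM in regulatory cells, so that the CD4 gates were in the opposite order, with overlapping intervals in WT only. Cd247, whose zeta homodimer carries most of the activation motifs of the complex, was highest in conventional CD4+ cells, at 317 and 280.3 CPM. It stood at 279.9 and 230.1 CPM in CD8+ cells and at 273 and 264 CPM in regulatory cells. In WT the CD8+ and regulatory intervals of Cd247 overlapped (275 to 285 and 265 to 280.4 CPM), whereas in VISTA-KO the CD8+ level lay below that of regulatory cells (225 to 236 and 254 to 275 CPM).

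Among the kinases, Lck, which phosphorylates the motifs, was at 852 and 779.7 CPM in CD8+ cells of WT and VISTA-KO, 766 and 778 CPM in conventional CD4+ cells and 759.7 and 682 CPM in regulatory cells. Fyn, the other Src-family kinase of T cells, stood at 263 and 246 CPM in CD8+, 265 and 248 CPM in conventional CD4+ and 212 and 192 CPM in regulatory cells. Regulatory cells were thus lowest for both kinases in both libraries, although in WT the Lck interval of regulatory cells (747 to 772 CPM) overlapped that of conventional cells (749.5 to 783 CPM). Zap70, which docks on the phosphorylated motifs, varied least among the gates, from 233 to 251 CPM in WT and from 230.0 to 248 CPM in VISTA-KO. The order of Zap70 levels differed between libraries, with regulatory cells highest in WT and lowest in VISTA-KO, and in each library their interval overlapped that of the next gate.

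The adapters followed different orders. Lat, the membrane scaffold, was at 786 and 757 CPM in CD8+ cells, 793 and 876 CPM in conventional CD4+ cells and 701 and 725 CPM in regulatory cells. CD8+ and conventional cells did not differ beyond counting error in WT, and regulatory cells were lowest in both libraries. Lcp2, the cytosolic partner of Lat, stood at 226 and 231 CPM in CD8+, 256 and 277 CPM in conventional CD4+ and 262 and 278 CPM in regulatory cells, with overlapping intervals between the CD4 gates and lower values in CD8+ cells.

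**Figure D1:**
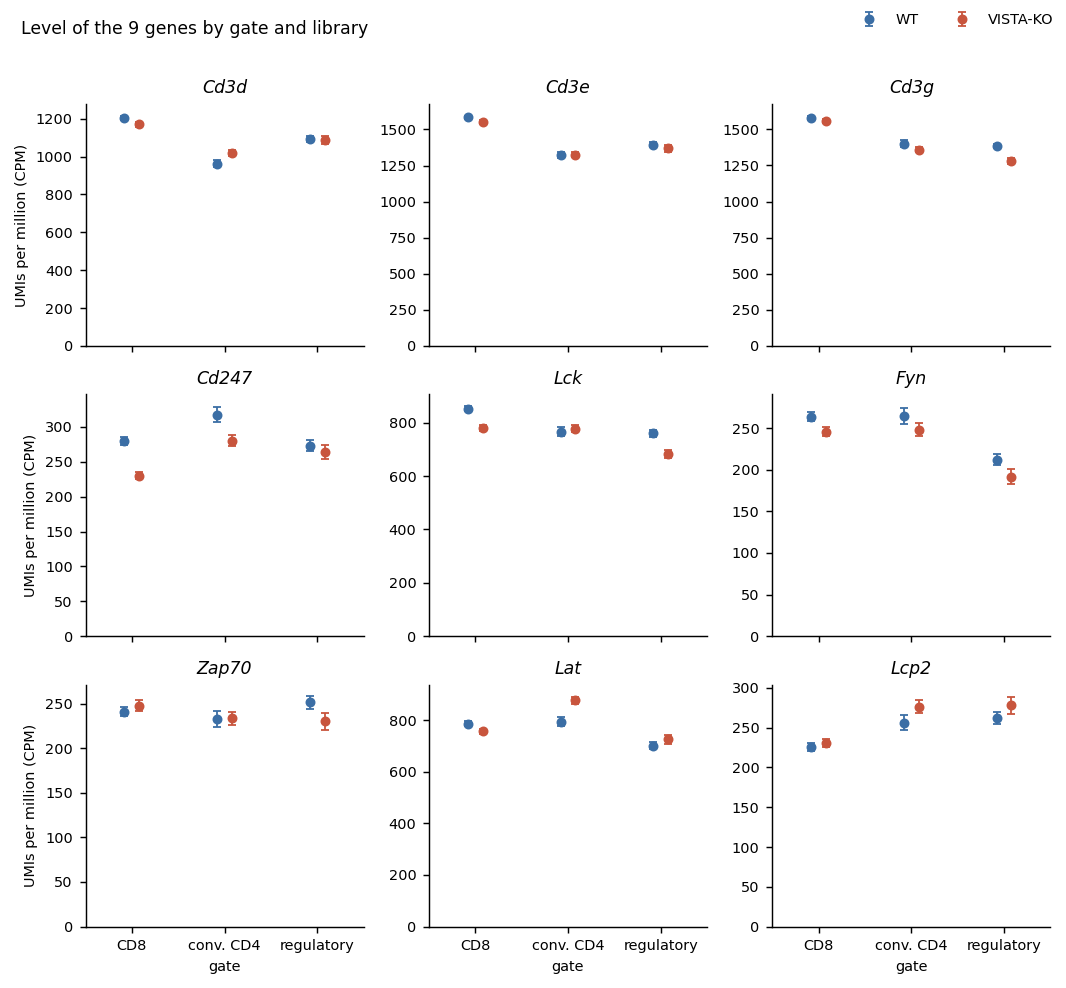
Level (CPM, linear axis from 0) of each gene in CD8+, conventional CD4+ and regulatory cells of the WT and VISTA-KO libraries, with 95% Poisson intervals that cover counting error only. Cd3d and Cd3e were highest in CD8+ cells of both libraries, Cd247 in conventional CD4+ cells, and Fyn was lowest in regulatory cells (212 and 192 CPM).

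Read as ratios, the conventional CD4+ level over the CD8+ level was lowest for Cd3d (0.80 in WT, 95% interval 0.783 to 0.817, and 0.871 in VISTA-KO), followed by Cd3e (0.835 and 0.855) and Cd3g (0.887 and 0.873). It was highest for Cd247 (1.13 and 1.22) and Lcp2 (1.13 and 1.20). A gene was counted as past the threshold when, after adding 5 CPM to both levels, one group was at least 25% above the other, 0.32 on the log2 scale. By that count 0 of the 9 genes passed in either library, where 14.9% of the 6367 genes with at least 20 CPM passed in WT and 19.5% of 6270 in VISTA-KO. In WT Cd3d fell just short of the threshold, at a log2 ratio of -0.3210 against 0.3219. Over 14 other settings its value ran from -0.4604 to -0.2234. The WT count depended on the setting. With cells thinned, with all weighted the same or without likely doublets, 1 of 9 genes passed in WT, and without dividing cells 2 did, all of them lower. Without cells that had no clonotype, 2 were higher and 1 lower past the threshold. With gates at 2 UMIs, or without cells carrying markers of other types, 0 passed. The median log2 ratio over the 9 genes was -0.05 in WT and 0.00 in VISTA-KO, beside 0.04 in both libraries over all genes tested. Leaving out CD4-gate cells with a Cd8a or Cd8b1 UMI moved the WT ratios of Cd247 to 1.34, Lcp2 to 1.35 and Cd3d to 0.781, which took 3 of 9 past the threshold (27.8% of all genes), and those of VISTA-KO to 1.28, 1.253 and 0.877, with 1 of 9 past it (26.0%).

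Regulatory cells had less Fyn and Lat than conventional CD4+ cells. For Fyn the WT ratio of regulatory to conventional cells was 0.80 (0.762 to 0.840) and the VISTA-KO ratio 0.774 (0.732 to 0.818), and for Lat they were 0.884 and 0.828. Cd3d went the other way, with ratios of 1.14 and 1.06. Past the threshold were 0 of 9 genes in WT and 1 in VISTA-KO, Fyn, against 19.5% and 21.2% of all genes. The VISTA-KO call was lost without cells carrying markers of other types, and the WT count was 1 or more in 8 of 13 other settings. Without cells that had a Cd8a or Cd8b1 UMI, 3 genes were lower past the threshold in WT (Cd247 0.719, Fyn 0.744 and Lat 0.762, beside 18.2% of all genes) and 2 in VISTA-KO (Fyn 0.762 and Lat 0.776, beside 12.2%). The median UMI count of a regulatory cell was 8839 in WT and 5939 in VISTA-KO, against 4106 and 4224 in conventional cells, and 45.5% and 35.3% of regulatory cells had a UMI of the proliferation genes Mki67 or Top2a, against 23.0% and 20.9%. Without the dividing cells Fyn remained lower, and 1 of 9 genes was then past the threshold in each library. With every cell thinned to 2000 UMIs, 0 of 9 genes were past it in WT and 1 in VISTA-KO.

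Nearly every gated cell carried a CD3 transcript. After each cell was thinned to 2000 UMIs, 98.7% of CD8+ cells had a UMI of at least 1 of the 4 chains in both libraries, as did 94.3% and 98.1% of conventional CD4+ cells and 99.6% of regulatory cells in both. Thinning left out 290 and 186 CD8+, 134 and 158 conventional CD4+ and 45 and 51 regulatory cells. Unthinned, the shares were 98.9% in CD8+ cells of both libraries, 95.6% and 98.4% in conventional and 99.7% and 99.9% in regulatory cells. Cells with at least 3 UMIs of the plasmacytoid dendritic cell markers Siglech and Ccr9, and none of Trac, Trbc1, Trbc2, Cd8a or Cd8b1, should lack the complex and gave the background. Their lack of receptor chains was set by that choice. The CD3 genes were not part of it, but leaving out cells with receptor chain or CD8 UMIs can lower the CD3 level too. These 36 WT and 26 VISTA-KO cells had medians of 7588 and 7691 UMIs, and 1 of 35 and 1 of 25 cells left after thinning had a CD3 UMI (2.86% and 4%). Unthinned, 25% of the WT and 11.5% of the VISTA-KO marker cells had one.

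Fyn differed from the other genes in this background. It stood at 589 CPM in the plasmacytoid marker cells of WT and 713 CPM in those of VISTA-KO, above every T cell gate, and 57.1% and 72.0% of them had a Fyn UMI after thinning, against 42.8% and 39.5% of CD8+ cells. Fyn is known to be expressed in many cell types, so a Fyn UMI does not mark a T cell. Zap70 had 0 UMIs in both sets of plasmacytoid marker cells, which, taken as 3 counts, allows a share of up to 8.57% of 35 WT cells and 12.0% of 25 VISTA-KO cells. In CD8+ cells 37.5% and 38.2% had a Zap70 UMI after thinning, 44.6% and 37.1% a Cd247 UMI, and 93.2% and 93.1% a Cd3e UMI. These shares follow the level of each transcript and are not shares of cells that express the gene. A thinned CD8+ cell had UMIs of 5.99 of the 9 genes on average in WT and 5.78 in VISTA-KO.

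Dividing CD8+ cells, taken by a Mki67 or Top2a UMI, had lower levels of most of the genes. For Lat their level over that of the other CD8+ cells was 0.760 (0.742 to 0.778) in WT, and the VISTA-KO ratio was 0.928 (0.903 to 0.954). The ratios were 0.774 and 0.831 for Fyn, 0.807 and 0.862 for Lck and 0.855 and 0.857 for Cd3d. Zap70 did not share this, with ratios of 1.06 and 1.01. Past the threshold were 2 of 9 genes in WT, both lower (14.1% of all genes lower), and 0 in VISTA-KO (10.7%). The dividing cells held more UMIs, with medians of 8255 and 7699 against 4436 and 4809 in the rest.

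The comparison of genotypes set the library labelled VISTA-KO against that labelled WT. In CD8+ cells the VISTA-KO over WT ratio was lowest for Cd247, 0.822 (95% interval, 0.797 to 0.848), followed by Lck at 0.916 (0.900 to 0.931) and Fyn at 0.933 (0.905 to 0.962). The other 6 genes lay between 0.963 (Lat) and 1.03 (Zap70). No gene of the 9 was past the threshold, beside 4.22% of 6083 genes, and the median log2 ratio was -0.04 over the 9 and -0.02 over all genes. With the most abundant clonotype left out on both sides, Cd247 came to 0.885 (0.856 to 0.915), Lck to 0.969, Fyn to 0.979 and Lat to 1.03. Cd247, Lck and Fyn thus lay closer to 1 without these clonotypes, which hold 1034 of the 5549 WT and 291 of the 4350 VISTA-KO CD8+ cells.

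In conventional CD4+ cells Cd247 was again lowest, at a VISTA-KO over WT ratio of 0.884 (0.846 to 0.925), and Lat highest, at 1.10 (1.08 to 1.13). In regulatory cells the ratio of Cd247 was 0.968 (0.923 to 1.02), an interval that includes 1, and the lowest were Lck at 0.898 and Fyn at 0.906. Neither gate had a member past the threshold, beside 9.31% of genes in conventional and 12.1% in regulatory cells. The median log2 ratio of the 9 genes was 0.00 in conventional and -0.05 in regulatory cells, against -0.04 and -0.01 over all genes. Without CD4-gate cells that had a Cd8a or Cd8b1 UMI the conventional CD4+ ratio of Cd247 was 0.783, the 1 member then past the threshold (10.6% of all genes), and without cells carrying markers of other types it was 0.827.

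**Figure D2:**
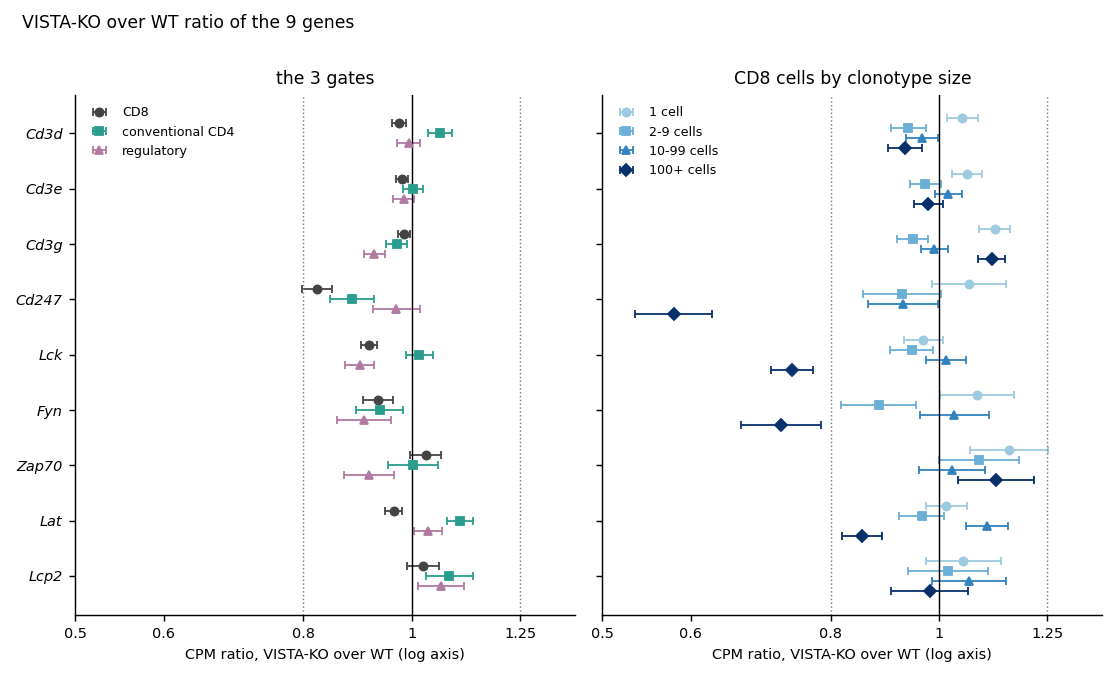
VISTA-KO over WT ratio of the CPM level of each gene (log axis) in the 3 gates (left) and in CD8+ cells by clonotype size (right), with 95% intervals for counting error only and dotted lines at the 25% threshold in both directions. In the gates no point passes a dotted line, and among clonotypes of 100 or more cells Cd247 (0.579), Fyn (0.722) and Lck (0.738) do.

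Clonotypes were then used to ask how the genes vary with expansion. A clonotype was the V gene and junction of the alpha and of the beta chain with most UMIs, and its size was counted among CD8+ cells of its library. In WT, 895 CD8+ cells were alone in their clonotype, 664 belonged to clonotypes of 2 to 9 cells, 1248 to clonotypes of 10 to 99 and 1352 to 2 clonotypes of 100 or more. In VISTA-KO the numbers were 1306, 1034, 681 and 438, the last again in 2 clonotypes, and 1390 and 891 CD8+ cells had no clonotype. The largest clonotypes are shown by their junctions, 5′ to 3′, since several results below turn on them. Capitals mark the first and last codon of the junction.
WT, largest clonotype, alpha TRAV10N: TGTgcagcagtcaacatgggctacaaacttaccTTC
WT, largest clonotype, beta TRBV12-2: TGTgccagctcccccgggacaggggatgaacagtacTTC
VISTA-KO, largest clonotype, alpha TRAV16N: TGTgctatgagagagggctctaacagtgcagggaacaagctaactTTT
VISTA-KO, largest clonotype, beta TRBV13-1: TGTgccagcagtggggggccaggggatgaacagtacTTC
They had 1034 and 291 CD8+ cells. The pair shared no V gene, and 2 clonotypes of any size occurred in CD8+ cells of both libraries.

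Cd3e, Cd3g and Zap70 were higher in expanded CD8+ cells of both libraries, and Cd247 and Fyn in those of WT. The WT level of Cd3g was 1174 CPM in cells alone in their clonotype, 1636 CPM at 2 to 9 cells, 1753 CPM at 10 to 99 and 1853 CPM at 100 or more. In VISTA-KO the same classes gave 1316, 1549, 1736 and 2065 CPM. Cd3g was thus higher in every larger class of both libraries, with no overlap of neighboring intervals (the closest were 1725 to 1780 and 1822 to 1885 CPM). These intervals leave out differences between clonotypes. In WT the largest clonotype stood at 1545 CPM (1511 to 1580), below the classes of 2 to 9 and 10 to 99 cells. The second clonotype of its class stood at 2577.5 CPM. In VISTA-KO the largest and second clonotypes were at 1986 and 2198 CPM. Cd3e went from 1294 to 1652, 1686 and 1873 CPM in WT and from 1371 to 1606, 1719 and 1832 CPM in VISTA-KO, in the same order. Cd3d did not follow its neighbors, with 1143, 1256, 1165 and 1430.0 CPM in WT and 1199, 1178, 1125 and 1334 CPM in VISTA-KO. Only clonotypes of 100 or more stood clearly above the single cells for Cd3d in both libraries.

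Zap70 stood at 189 CPM in single cells of WT, 233 CPM at 2 to 9 cells, 276 CPM at 10 to 99 and 252 CPM at 100 or more, and at 218, 253, 283 and 283 CPM in VISTA-KO. Single cells were lowest in both libraries. Cd247 differed between the libraries mainly at 100 or more cells, with 217, 255, 262 and 390.0 CPM in WT and 230.4, 237, 243 and 226 CPM in VISTA-KO. The WT class of 100 or more held 2 clonotypes, the largest at 428 CPM and the second at 301 CPM. In VISTA-KO all 4 classes of Cd247 had intervals that overlapped at least 1 other, and the largest class was not above single cells.

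Lck was at 808, 851, 772 and 1080.2 CPM over the WT classes and at 783, 804, 783 and 798 CPM over those of VISTA-KO. Fyn was at 214, 289, 252 and 307 CPM in WT and at 231, 255, 260.3 and 222 CPM in VISTA-KO. For both Src-family kinases the WT class of 100 or more stood above the other classes or level with the next one, and the VISTA-KO class did not. In the second of the WT clonotypes in that class, Lck was at 813 CPM and Fyn at 238 CPM, against 1194 and 336 CPM in the largest. Over the WT classes Lat stood at 719, 768, 670.2 and 1080.5 CPM, and over those of VISTA-KO at 730.0, 741, 739.8 and 922 CPM. The class of 100 or more was highest in both libraries, and this lay in its largest clonotype, at 1271 (WT) and 1025 CPM (VISTA-KO). The second WT clonotype of that class stood at 633 CPM, below single cells. The second of VISTA-KO, at 749 CPM (704 to 797), did not differ from single cells beyond counting error. The WT class of 10 to 99 cells had the lowest Lat level. Lcp2 was at 209, 237, 217 and 262 CPM in WT and 220.0, 241, 231 and 257 CPM in VISTA-KO, a smaller spread than that of Lat.

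**Figure D3:**
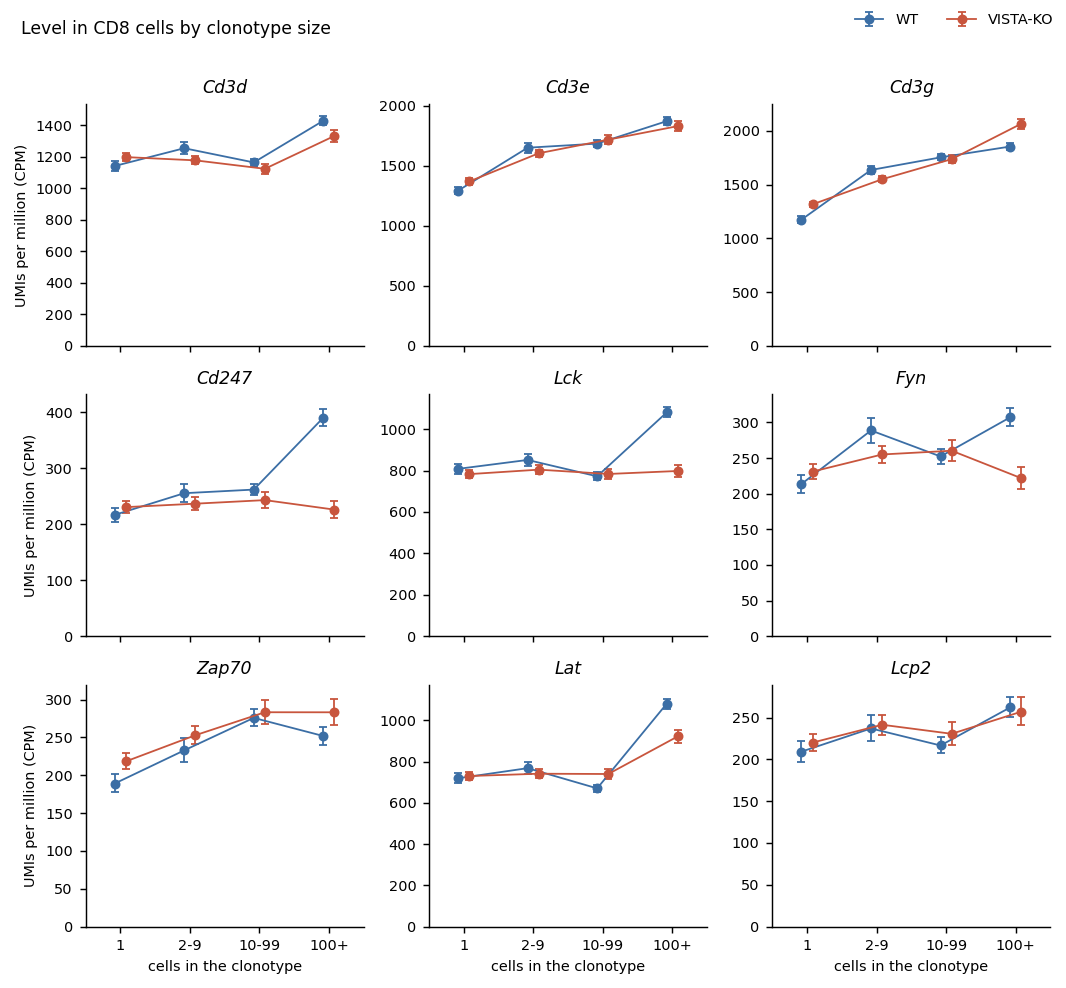
Level (CPM, linear axis from 0) of each gene in CD8+ cells by the size of their clonotype (1, 2 to 9, 10 to 99, and 100 or more cells of the library) with 95% Poisson intervals. Cd3g and Cd3e were higher in each larger class of both libraries, while Cd247, Lck and Fyn were high at 100 or more cells in WT (390.0, 1080.2 and 307 CPM) and not in VISTA-KO (226, 798 and 222 CPM). The 2 WT clonotypes of 100 or more cells differed from each other. Lck was at 1194 CPM in the largest and 813 CPM in the second, and Cd3g at 1545 and 2577.5 CPM.

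Clonotypes of 10 or more cells were compared with single cells within each library. The ratio in WT and VISTA-KO was 1.53 (95% interval, 1.49 to 1.57) and 1.43 (1.39 to 1.47) for Cd3g. It was 1.37 (1.331 to 1.404) and 1.29 (1.26 to 1.32) for Cd3e, and 1.403 (1.31 to 1.51) and 1.30 (1.22 to 1.38) for Zap70. These 3 genes passed the threshold in both libraries. In VISTA-KO Cd3g alone did so when ratios were centred on the median of all genes or when mitochondrial, ribosomal and receptor segment genes were taken out of the CPM, and in WT 4 of 9 genes then passed, without Fyn. For Cd247 the WT ratio was 1.47 (1.38 to 1.57) and the VISTA-KO ratio 1.02 (0.958 to 1.09), and Fyn was at 1.29 (1.21 to 1.38) and 1.05 (0.988 to 1.12). Cd3d, Lck, Lat and Lcp2 lay between 1.12 and 1.19 in WT and between 1.01 and 1.12 in VISTA-KO. In all, 5 of 9 genes were higher past the threshold in WT, beside 15.5% of 6184 genes higher and 8.81% lower, and 3 of 9 in VISTA-KO, beside 16.6% of 6195 genes higher and 12.5% lower. No member was lower past the threshold. Over the 9 genes the median log2 ratio was 0.37 (WT) and 0.14 (VISTA-KO), beside 0.09 and 0.05 over all genes.

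The classes also differed in what kind of CD8+ cell they held. A UMI of Ccr7 or Lef1, genes of naive and central memory T cells, was found in 54.6% of WT and 47.5% of VISTA-KO single cells, and in 22.4% and 21.0% of cells in clonotypes of 10 or more. Without the cells that had one, the ratios of Cd3g were 1.33 and 1.31, those of Cd3e 1.23 and 1.22, those of Zap70 1.26 and 1.24, and those of Cd247 1.37 and 1.05. The count past the threshold was then 3 of 9 in WT (8.39% of all genes higher) and 1 in VISTA-KO (11.2%). Without the largest clonotype of each library instead, the WT ratio of Cd247 was 1.24, that of Lck 0.965 and that of Lat 0.922, while Cd3g (1.63), Cd3e (1.37) and Zap70 (1.47) stayed past the threshold, 3 of 9 in each library beside 18.4% and 15.6% of all genes. With both left out, Cd3g was at 1.42 and 1.27, Zap70 at 1.33 and 1.23 and Cd3e at 1.245 and 1.21, while Fyn (0.971 and 0.995), Lck (0.931 and 0.944), Lcp2 (0.912 and 0.949) and Lat (0.826 and 0.929) were below 1. This left 2 of 9 past the threshold in WT (11.9% higher among all genes) and 1 in VISTA-KO (10.9%).

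**Figure D4:**
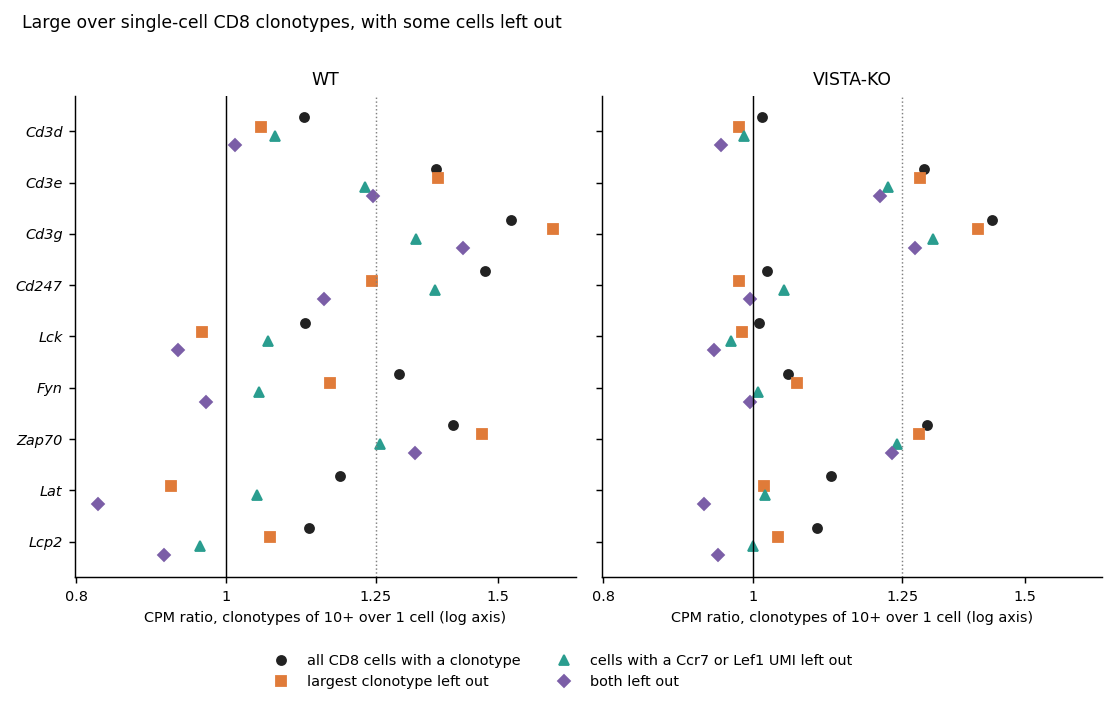
Ratio of the CPM level in CD8+ clonotypes of 10 or more cells to that in cells alone in their clonotype (log axis), with all cells (black), without the largest clonotype (orange), without cells that had a Ccr7 or Lef1 UMI (green) and without both (purple). Cd3e, Cd3g and Zap70 lie above 1 in every setting shown and both libraries (lowest 1.21), whereas Lat reaches 0.826 in WT.

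Of the 4 size classes, that of 100 or more cells, with 2 clonotypes in each library, had the lowest ratios of VISTA-KO to WT. The VISTA-KO over WT ratio in this class was 0.579 (0.535 to 0.627) for Cd247, 0.722 (0.665 to 0.783) for Fyn and 0.738 (0.707 to 0.771) for Lck. For Cd3g it was 1.11 and for Zap70 1.12. These 3 of 9 genes were lower past the threshold, beside 16.3% of all genes lower. In the class of 1 cell the ratios ran from 0.969 (Lck) to 1.15 (Zap70), at 2 to 9 cells from 0.883 (Fyn) to 1.09 (Zap70), and at 10 to 99 from 0.928 (Cd247) to 1.10 (Lat). The difference in Cd247, Lck and Fyn among the most expanded cells compares 4 receptors in all, and receptor and genotype cannot be told apart in it. In WT, Lck was at 1194 CPM in the largest clonotype and 813 CPM in the second. Fyn was at 336 and 238 CPM there, and Cd247 at 428 and 301 CPM. The 2 VISTA-KO clonotypes were at 841 and 724 CPM for Lck, 234 and 201 CPM for Fyn, and 261 and 167 CPM for Cd247. The high WT levels of Lck and Fyn in this class thus lay in its largest clonotype. Dividing cells made up 20.6% of the WT and 44.1% of the VISTA-KO cells in this class, and their part was not tested.

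The largest WT clonotype was set against the pool of all other WT CD8+ cells. Its level over that of all other WT CD8+ cells was 1.79 (1.74 to 1.84) for Lat, 1.66 (1.59 to 1.75) for Cd247, 1.49 (1.45 to 1.54) for Lck, 1.33 for Fyn and 1.253 for Cd3d. It was 0.992 (0.933 to 1.05) for Zap70 and 0.974 (0.951 to 0.997) for Cd3g. In VISTA-KO the largest clonotype stood at 1.397 (1.34 to 1.46) for Lat and 1.31 for Cd3g, at 1.20 for Zap70, 1.15 for Cd247, 1.09 for Lck and 0.948 (0.866 to 1.036) for Fyn. Higher past the threshold were 5 of 9 genes in WT (16.6% of all genes) and 2 in VISTA-KO (12.7%). Lat was the gene with the highest ratio in both libraries. High levels of Lat, Lck and Fyn were not particular to the largest WT clonotype. Among the 15 WT clonotypes of at least 30 cells, it ranked 1 for Cd3d, 2 for Cd247 and Lck, 3 for Lat and 9 for Fyn. The WT clonotype of rank 4 by size, for example, stood at 1183 CPM for Lat, 1156 CPM for Lck and 354 CPM for Fyn.

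Clonotypes of at least 30 cells, 15 in WT and 7 in VISTA-KO, showed how far single clonotypes spread. Lat ranged from 362 CPM through a median of 1006 to 1425 CPM among the WT clonotypes, a 3.93-fold range, and from 316 through 749 to 1034 CPM among those of VISTA-KO, 3.27-fold. Cd247 ranged from 161 through 283 to 549 CPM and from 167 through 261 to 398 CPM. These 2 genes had the widest ranges in both libraries. Zap70 ranged from 165 through 270.0 to 361 CPM in WT and only from 249.6 through 267 to 314 CPM in VISTA-KO, a 1.26-fold range. Cd3e, Cd3g and Zap70 were above the level of single cells in 15, 15 and 14 of 15 WT clonotypes and in all 7 of VISTA-KO. For Cd3e the lowest was 1299 CPM in WT against 1294 CPM in single cells, which did not differ beyond counting error. For Zap70 the intervals of several clonotypes included the single-cell level. Examples were 181 to 352 CPM against 218 CPM in VISTA-KO and 186 to 344 CPM against 189 CPM in WT. Lat was above the single-cell level in 9 of 15 and 5 of 7 clonotypes and Lck in 10 and 4, so these genes lay on both sides.

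Fyn ranged from 156 through 354 to 478 CPM in WT and from 160 through 234 to 344 CPM in VISTA-KO. Lck ranged from 596 through 968 to 1248 CPM and from 613 through 798 to 850.4 CPM. Several WT clonotypes thus had more Lck than any VISTA-KO clonotype, with 15 clonotypes set against 7. For Fyn the intervals of the highest WT and the highest VISTA-KO clonotype overlapped (363 to 618 and 256 to 453 CPM). Cd3d ranged from 918 to 1458 CPM and from 814 to 1349 CPM, and the largest WT clonotype was its highest point. Lcp2 ranged from 162 to 376 CPM and from 161 to 289 CPM. Clonotypes of 1 library share that library and are no replicates of a genotype.

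**Figure D5:**
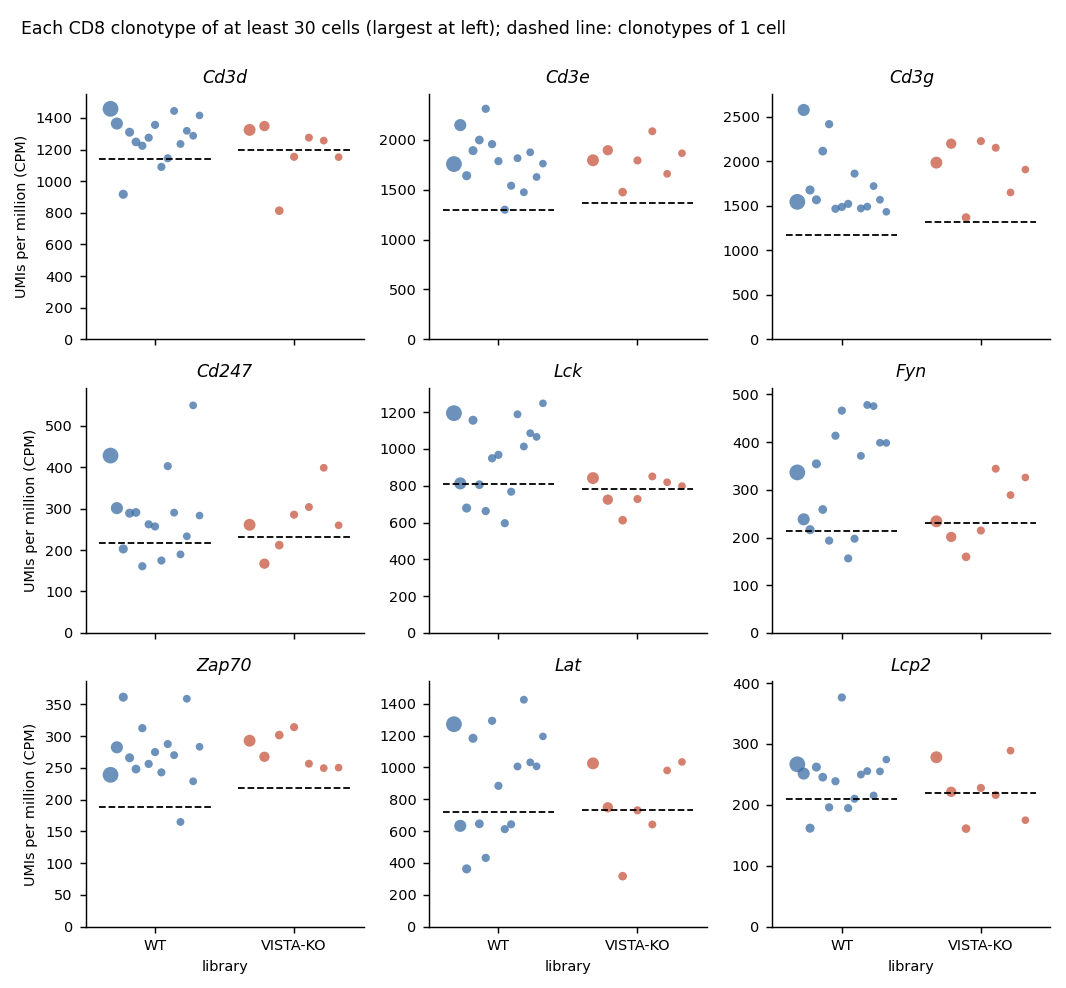
Level (CPM, linear axis from 0) of each gene in each CD8+ clonotype of at least 30 cells, 15 in WT and 7 in VISTA-KO. The largest clonotype is at the left of each column, and the level of cells alone in their clonotype is a dashed line. Larger dots have more cells, with an area that grows with the square root of the cell number and not in proportion to it. Cd3e, Cd3g and Zap70 lie above the line in 14 or 15 of 15 WT and all 7 VISTA-KO clonotypes, while Lat spreads from 362 to 1425 CPM and from 316 to 1034 CPM around it. For Zap70 several of these clonotypes did not differ from the line beyond counting error.

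The third clonotype by size in each library, of 79 and 60 cells, had the lowest levels of Lat (362 and 316 CPM), Cd3d (918 and 814 CPM) and Lcp2 (162 and 161 CPM) of all the clonotypes of at least 30 cells. Their Zap70 levels, 361 and 302 CPM, were the highest in WT and the second highest in VISTA-KO. These ranks lay within counting error. In WT the Zap70 interval overlapped that of another clonotype (325 to 400 and 256 to 489 CPM), as it did in VISTA-KO (263 to 344 and 271 to 316 CPM). The third VISTA-KO clonotype was also the lowest for Cd3e, Cd3g, Lck and Fyn. In WT the Lat and Lcp2 intervals overlapped those of the next lowest clonotype (for Lcp2, 138 to 188 and 163 to 230 CPM). In VISTA-KO that of Lcp2 did (133 to 192 and 123 to 241 CPM). The junctions of the third clonotypes are shown for comparison, with the same capitals.
WT, the third clonotype, alpha TRAV7-3: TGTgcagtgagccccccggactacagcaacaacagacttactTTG
WT, the third clonotype, beta TRBV20: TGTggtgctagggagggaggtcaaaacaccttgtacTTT
VISTA-KO, the third clonotype, alpha TRAV12-2: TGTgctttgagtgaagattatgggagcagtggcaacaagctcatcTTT
VISTA-KO, the third clonotype, beta TRBV19: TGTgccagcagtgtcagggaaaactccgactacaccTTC
The pair shared no V gene. Their cells held many UMIs (medians of 11265 and 11105), and 60.8% and 41.7% of them had a Mki67 or Top2a UMI, whose part in these levels was not tested.

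Between single cells and clonotypes of 10 or more, the shares of Cd3d and Cd3g in the CD3 transcript pool shifted alike in both libraries. That of Cd247 did not. The 4 chains together were at 3828 CPM in WT single cells and 4117 CPM in those of VISTA-KO, and at 5547 and 5457 CPM in clonotypes of 100 or more. Cd3d made up 29.9% of these UMIs in WT single cells and 24.8% in clonotypes of 10 or more, and 29.1% and 23.8% in VISTA-KO. Cd3g moved the other way, from 30.7% to 34.8% in WT and from 31.98% to 36.9% in VISTA-KO. For Cd247 the share went from 5.66% to 6.17% in WT and from 5.60% to 4.61% in VISTA-KO. Its share was 6.02% in WT and 5.11% in VISTA-KO CD8+ cells, and 7.92% and 7.04% in conventional CD4+ cells. The shift was not steady with size: the WT share of Cd3g was 36.0% at 10 to 99 cells and 33.4% at 100 or more. In the largest WT clonotype it was 29.8%, and in VISTA-KO these classes gave 36.0% and 37.8%. Cd3d was at 23.9% and 25.8% in the same classes of WT and at 23.3% and 24.4% in those of VISTA-KO. These shares depend on the length and capture of each transcript and are no count of chains in the receptor.

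Other genes of the pathway were read by counts past the threshold from lists of 42 genes. In CD8+ cells, VISTA-KO over WT, 2 of 3 receptor chain genes were higher, beside 2.58% of all genes. They were Trbc1 (84.2 to 129 CPM, ratio 1.53) and Trbc2 (215 to 288 CPM, ratio 1.34), the constant regions of the beta chain. Near-identical constant regions share reads, and the choice between Trbc1 and Trbc2 is fixed in each clonotype. None of 19 downstream adapters and enzymes with at least 20 CPM (20 listed), of 10 regulators of Lck and Zap70 or of 2 measurable family relatives (9 listed) was past the threshold in that comparison. Of all genes only 4.22% were, in either direction, so that counts of 0 in lists this short are near that share.

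Between clonotype sizes 24.3% of all genes were past the threshold in WT and 29.1% in VISTA-KO in either direction. Names here were chosen after their values were seen. In WT, 1 of 19 downstream genes was higher in clonotypes of 10 or more, Themis (88.4 to 143 CPM, ratio 1.62), which tunes receptor signals in thymocytes, and 4 were lower, among them the Tec kinase Txk (0.403) and the adapter Trat1 (0.256). In VISTA-KO Themis was at 1.37, and 5 genes were lower, with Txk at 0.464 and Trat1 at 0.378. Of 10 regulators, 3 were higher in WT and 5 higher and 2 lower in VISTA-KO. Ubash3b, a phosphatase that acts on Zap70, was at 1.98 and 1.67, the Lck chaperone Unc119 at 1.58 and 1.53, and the ubiquitin ligase Cblb at 1.38 and 1.49. Of the family relatives, Lat2 was at 1.71 and 1.64 and Fcer1g, which can stand in for the zeta chain, at 0.417 and 0.442, 1 higher and 1 lower in both libraries. Receptor chain genes passed the threshold in VISTA-KO alone, 2 of 3 (Trac 1.27 and Trbc1 1.61).

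In the other comparisons the same lists gave the following counts. Between conventional CD4+ and CD8+ cells, 4 of 19 downstream genes were higher in WT and 3 in VISTA-KO, with 0 lower (of all genes, 11.1% and 12.2% higher, 3.77% and 7.27% lower), and of the regulators 1 was higher and 1 lower in WT and 1 higher and 3 lower in VISTA-KO. Between regulatory and conventional CD4+ cells, 8 of 19 downstream genes were lower in each library, beside 0 higher in WT and 1 in VISTA-KO. Of all genes 10.7% were lower and 8.78% higher in WT, and 9.39% lower and 11.8% higher in VISTA-KO. Among the downstream genes that were lower, Themis was at 0.466 and 0.358 and Txk at 0.707 and 0.668. Of the family relatives measured in conventional CD4+ cells, 4 of 4 were lower in VISTA-KO than in WT (5.63% of all genes lower). Among them were Fcer1g (0.647) and Lyn (0.593). Plasmacytoid and myeloid cells also express these genes, and the part of such cells was not tested.

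Likeness was measured by Pearson's r of log2(CPM + 5) over 12 groups of cells, the 4 clonotype classes, conventional CD4+ and regulatory cells of both libraries, among 7016 genes. The groups share libraries, and r is given as a description. Cd3e was most like Ikzf3 (0.965), Cd3g most like Oxsr1 (0.963) and Cd3d most like Arhgap9 (0.898). Zap70 was most like Litaf (0.964), Lck most like Mrpl30 (0.924) and Fyn most like Kctd2 (0.948). Cd247 was most like Gabbr1 (0.944), Lat most like Ppp1r18 (0.952) and Lcp2 most like Emp3 (0.950). Among the members, Cd3e and Cd3g were closest (0.952), followed by Cd3g and Zap70 (0.842) and by the neighbors Cd3d and Cd3e (0.780). Cd3d was at 0.645 with its other neighbor Cd3g and at 0.0656 with Cd247.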

How the data were processed

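Single-cell gene expression and receptor libraries were made on a droplet platform, 1 of each per genotype. The authors deposited unnormalized UMI counts, a gene by cell matrix made with Cell Ranger 5.0.0 (mouse mm10 reference, GRCm38), and receptor contigs with their UMI counts. The labels describe a 3′ kit and the methods a 5′ V(D)J kit.

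UMIs were summed over cells of a library and scaled to CPM. Levels have exact Poisson and ratios exact conditional 95% intervals, shares exact binomial ones. Shares of cells were taken after thinning to 2000 UMIs. Genes at 20 CPM or more in either group were read against a threshold of 25%, after adding 5 CPM. Cells were kept at 600 genes and under 30% mitochondrial UMIs. Scrublet called 1 and 0 doublets, so doublets were kept, and likely ones (a score above percentile 92, or 2 productive beta chains, 1047 and 1140 cells) were left out in an alternative. Python 3.11.15, numpy 2.4.6, scipy 1.17.1, pandas 2.3.3, scanpy 1.11.5 and matplotlib 3.10.9 were used, and the comparison was tested on simulated data.

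The 9 genes and the lists (receptor chains, downstream genes, regulators, relatives and cell type markers) were chosen with earlier results of these data known. Named by rule were the 9 genes, the 2 highest and 2 lowest genes of each list past the threshold in CD8+ cells between genotypes, and the gene most like each member. Genes of the lists named in other comparisons were chosen after their values were seen. RefSeq sequences matched by symbol.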

Additional observations from a re-analysis of the deposited data

Results flagged for a closer look

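The VISTA-KO over WT ratio of Cd3d was 0.974 in CD8+ cells, 1.06 in conventional CD4+ cells and 0.994 in regulatory cells, and that of Lat was 0.963, 1.10 and 1.03. The direction in CD8+ cells was opposite to that in conventional CD4+ cells. For Lat this held only with the most abundant clonotype of each library kept: without it the CD8+ ratio was 1.03. Over 13 other settings the conventional CD4+ log2 ratio ran from 0.0166 to 0.1412 for Cd3d and from 0.0207 to 0.209 for Lat. In CD8+ cells that of Cd3d ran from -0.0643 to -0.0073. Some settings thus left almost no difference between the genotypes. The difference between the gates was not tested, since there was 1 library per genotype, and each ratio was within the threshold of 25%.

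Cells outside the 3 gates, which enter no comparison, carried transcripts of the CD3 chains as well. In WT the 4 CD3 chains summed there to 3619 CPM, and in VISTA-KO to 3428 CPM, against 43.1 and 15.0 CPM in the plasmacytoid marker cells. After thinning, 95.9% and 96.0% of these cells had a CD3 UMI.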

How the results depend on the processing

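Results below are the median log2 ratio over the 9 genes, read under 19 settings. No paired analysis was possible because each genotype had 1 library, and for the same reason no replicate could be left out. As reported, VISTA-KO over WT was -0.0386 in CD8+ cells, 0.0038 in conventional CD4+ cells and -0.0455 in regulatory cells. Centred on the median of all genes, it was -0.0139 in CD8+ cells, and the ratio of clonotypes of 10 or more cells to single cells in WT was 0.2772. With mitochondrial, ribosomal and receptor segment genes taken out of the CPM, regulatory over conventional CD4+ cells in VISTA-KO was -0.1350, and the clonotype size ratio 0.2484 in WT and 0.0366 in VISTA-KO. With every cell weighted the same, VISTA-KO over WT was -0.0600 in CD8+ and -0.0359 in conventional CD4+ cells, conventional CD4+ over CD8+ -0.1699 (WT) and -0.0514 (VISTA-KO), and regulatory over conventional -0.0890 and -0.1146. After thinning, VISTA-KO over WT in CD8+ cells was -0.0643, conventional CD4+ over CD8+ in WT -0.1704 and regulatory over conventional in VISTA-KO -0.1316.

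Gates at 2 UMIs gave 0.0301 for conventional CD4+ over CD8+ in VISTA-KO, and CD4 gates without Cd8a or Cd8b1 UMIs -0.0669 for regulatory over conventional in WT. Without cells carrying markers of other types, VISTA-KO over WT in conventional CD4+ cells was -0.0570, conventional CD4+ over CD8+ in VISTA-KO -0.0548, and regulatory over conventional -0.1297 in WT and -0.1179 in VISTA-KO. Without likely doublets the last was -0.1310. Without dividing cells, VISTA-KO over WT in regulatory cells was -0.1721, conventional CD4+ over CD8+ -0.1211 and -0.0878, regulatory over conventional 0.0694 and -0.0134, and the clonotype size ratio 0.5089 and 0.2254. Without the largest clonotype the last was 0.2191 in WT.

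The other 4 settings were chosen after seeing the data. Without clonotypes of 100 or more cells the size ratio in WT was 0.2344. Without cells that had a Ccr7 or Lef1 UMI it was 0.1058 in WT and 0.0257 in VISTA-KO, and without the largest clonotype as well 0.0192 and -0.0063, where Fyn in WT turned to -0.0417. Without cells that have no clonotype, VISTA-KO over WT in CD8+ cells was -0.0602, and regulatory over conventional -0.1435 in WT and -0.1310 in VISTA-KO. The cause of these shifts was not tested. Of 1143 single-gene values recomputed, 115 changed sign, and 1 of these was past the threshold as reported. With all genes of at least 1 UMI read, the share of all genes past the threshold between clonotype sizes was 17.6% in WT and 21.1% in VISTA-KO, against 24.3% and 29.1% as reported.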

Other observations

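The third clonotype of each library, which had the lowest Lat, Cd3d and Lcp2 levels, also differed from other CD8+ cells in other genes. These were chosen here after their values were seen, and the same counts for other clonotypes are not given. The 6028 genes read had at least 20 CPM in the third clonotype or in other CD8+ cells, in each library. Of these, 19 were at least 3-fold higher in that clonotype than in other CD8+ cells in both libraries and 85 at least 3-fold lower. Some of the 19 reached 20 CPM in the clonotype only. Gldc, for example, was at 65.6 against 7.20 CPM in WT and 68.4 against 3.72 CPM in VISTA-KO. Some of the lower genes reached it in the other cells only. Tnfrsf9, the costimulatory receptor 4-1BB, stood at 842 CPM against 223 CPM in WT and 966 CPM against 189.7 CPM in VISTA-KO. The chemokine Ccl3 stood at 1420 against 335 CPM and 1598 against 414 CPM, and Eno3 at 169 against 24.9 CPM and 143 against 14.2 CPM. Among the genes that were lower, the granzyme Gzma had 2 and 1 UMIs in these cells and was at 341 and 203 CPM in other CD8+ cells. The chemokine receptor Cxcr3 stood at 12.7 against 294 CPM and 8.04 against 285 CPM, and Klf2, a factor of naive and circulating T cells, at 63.6 against 401 CPM and 34.9 against 581 CPM. The lower genes also included Siglech, at 0 against 38.2 CPM in WT and 0 against 27.4 CPM in VISTA-KO. Foxp3 was another, at 8.81 against 37.9 CPM and 0 against 20.2 CPM. These are markers of plasmacytoid and regulatory cells, and the part of such cells among the other CD8+ cells was not tested. The 2 clonotypes share no V gene, and each is 1 receptor in 1 pool.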
